A study of Homo sapiens with 6 samples.

Results

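The cell-surface receptors of Wnt signalling were described in HCT116, a human cell line established from a colorectal carcinoma, with and without silencing of the long non-coding RNA AC010789.1. The 10 genes were 4 Frizzled receptors (FZD3, FZD5, FZD6 and FZD7), the co-receptors LRP5 and LRP6, the ubiquitin ligases RNF43 and ZNRF3, and the R-spondin receptors LGR4 and LGR5. They were taken by gene symbol, with no cut on their values, but the list was chosen with earlier results of these data known. They were 10 of the 18750 genes and 41 of the 98886 transcripts in the count table. All groups were cells of the labelled line HCT116 grown in the same medium: 3 libraries from cells transfected with a negative control siRNA (siRNA-NC replicates 1 to 3) and 3 from cells transfected with siRNA against AC010789.1 (si-AC010789.1 replicates 1 to 3). The comparison asked whether the RNA of these receptors differed once AC010789.1 was silenced, in a study that links this RNA to the Wnt/β-catenin pathway. The labels do not say whether the replicates were separate cultures. The study speaks of biological repeats that may have come from cells of unequal passage, and the p-values measure the spread between these libraries.

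A Wnt ligand binds a Frizzled receptor, a protein that spans the membrane, together with LRP5 or LRP6, and the pair recruits the proteins that otherwise hold β-catenin down. RNF43 and ZNRF3 are membrane ubiquitin ligases that remove Frizzled receptors from the cell surface, and R-spondins bound to LGR4, LGR5 or LGR6 in turn remove RNF43 and ZNRF3. In the intestine LGR5 is known as a stem cell marker and, like RNF43, ZNRF3 and AXIN2, as a target gene of the pathway itself. HCT116 is known to carry an activating mutation of CTNNB1, the gene of β-catenin, so in this line the pathway is active below the receptors. The line is also known to carry a truncating mutation of RNF43, which acts at the receptors.

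The microRNA miR-432-3p is the partner that the study places downstream of AC010789.1, and its sequence is shown because 4 of the 10 receptor genes hold a match to its seed. The mature sequence of RefSeq (GRCh38.p14, chr14:100884544-100884564, plus strand, 21 nt) is given with the seed, bases 2 to 8, in capitals.

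hsa-miR-432-3p: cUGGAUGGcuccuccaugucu

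The letters searched in annotated 3′ UTRs were CCATCCA, the match to bases 2 to 8, and CATCCAA, the match to bases 2 to 7 followed by A. Of 19146 genes with an annotated 3′ UTR, 3373 (17.6%) held one of these in sense, and the receptors with one were FZD3, FZD5, LGR5 and RNF43, with 6 sites in all. FZD3 held 3 of the 6, 2 of them CATCCAA. The other 3 are shown as 30 bases of each 3′ UTR in GRCh38, with the match in capitals: FZD5 at chr2:207764346-207764375 (minus strand), LGR5 at chr12:71585942-71585971 (plus strand) and RNF43 at chr17:58353231-58353260 (minus strand).

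FZD5 site: caccccctgtttCCATCCAtatagttactt

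LGR5 site: ttagcttcaataCATCCAAaccaaatggct

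RNF43 site: agtgatagaaaaCATCCAAacctgtcacag

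The site of RNF43 lies in the 3′ UTR of RNF43-201 alone, 1 of its 6 listed transcripts. A match is a description of letters and was not tested as a binding site. In the test of the gene sums given with each gene, FZD3, FZD5 and RNF43 did not pass, and LGR5 was too low to be tested.

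LGR4 and LRP6 were each listed with a pair of long coding transcripts that differ by an in-frame segment, and these are shown because the counts of single transcripts differed widely between libraries. LGR4-201 holds a segment of 72 nt (24 codons, chr11:27412789-27412860, minus strand, GRCh38) that LGR4-202 skips. The first line gives the join at the 5′ end of the segment, the second the join at its 3′ end and the third the join in LGR4-202, with bases of the segment in capitals.

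LGR4-201, into the segment: cttcacccaagcgctGGATATCAGTATGAA

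LGR4-201, out of the segment: TTTTCTAGAAGAGCTacaattggcgggcaa

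LGR4-202, without it: cttcacccaagcgctacaattggcgggcaa

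LRP6-201 holds a segment of 135 nt (45 codons, chr12:12131923-12132057, minus strand) that LRP6-206 lacks, and at its 3′ end the exon goes on without a break. The lines have the same order, and the same use of capitals, as those of LGR4.

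LRP6-201, into the segment: agctatcatgtggagAACCTCCAACATGTT

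LRP6-201, out of the segment: GTCCTGTATGCTCAGagtcccagttccagt

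LRP6-206, without it: agctatcatgtggagagtcccagttccagt

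Total counts per library ran from 11277222 to 13443866, and 3 counts, the level taken as the floor, were 0.223 to 0.266 CPM (counts scaled to library size with TMM factors). Counting error only is covered by this floor. Among defining markers of colon epithelium, the keratins KRT8 and KRT18 lay between 351 and 850.5 CPM in the 6 libraries, while EPCAM lay between 3.10 and 5.59 CPM and CDH17, CLDN3 and LGALS4 had 0 to 4 counts in every library. Of the 10 epithelial markers listed, 7 were found in the counts used here, and KRT19, CDX2 and VIL1 were not found. The 4 fibroblast markers in the table summed to 59.7 to 69.3 CPM with siRNA-NC and 63.8 to 68.6 CPM with si-AC010789.1, mostly COL1A1 and PDGFRB, and the 4 immune and endothelial markers to 2.49 to 3.83 and 2.01 to 4.05 CPM. EPCAM, CDH17, CLDN3 and LGALS4 were thus low or near the floor in cells labelled as a colorectal epithelial line. The part of this in the receptor levels was not tested. In bulk RNA, fewer cells with a transcript and less of it per cell cannot be told apart. The level of AC010789.1 itself was not analysed here, so the silencing was not checked in the counts, and the study refers to a check of its own made before sequencing.

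Of the 10 receptor genes, 9 passed the filter on low counts, and none of the 9 passed an adjusted p of 0.05 (edgeR quasi-likelihood test, Benjamini-Hochberg over 13750 genes). By the same rule 0.982% of all genes tested were called. The count of receptors was also 0 at an unadjusted p under 0.05, where 17.2% of all genes lay. It was 0 as well at the cutoffs of the study, an unadjusted p under 0.05 with a log2 fold change beyond 1 in either direction. Applied to these edgeR values, the cutoffs took 0.778% of genes. The study itself used Cuffdiff and describes leaving out genes that differed within a group. DESeq2 called 0 of the receptors as well, beside 5.06% of the 10278 genes to which it gave an adjusted p. FZD3 and RNF43 had no adjusted p in DESeq2. Adjusted p-values of the 9 ran from 0.400 to 0.989 in edgeR, and after silencing 6 of the 9 were higher and 3 lower. The median of their log2 fold changes was 0.013, beside -0.00066 over all genes, of which 49.9% were higher. In 1 receptor, FZD3, the libraries of the groups did not overlap, as in 25.1% of all genes. The intervals were narrow for LRP5, ZNRF3, FZD6 and FZD5 and widest for LGR4, as the plot of fold changes shows.

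**Figure D1:**
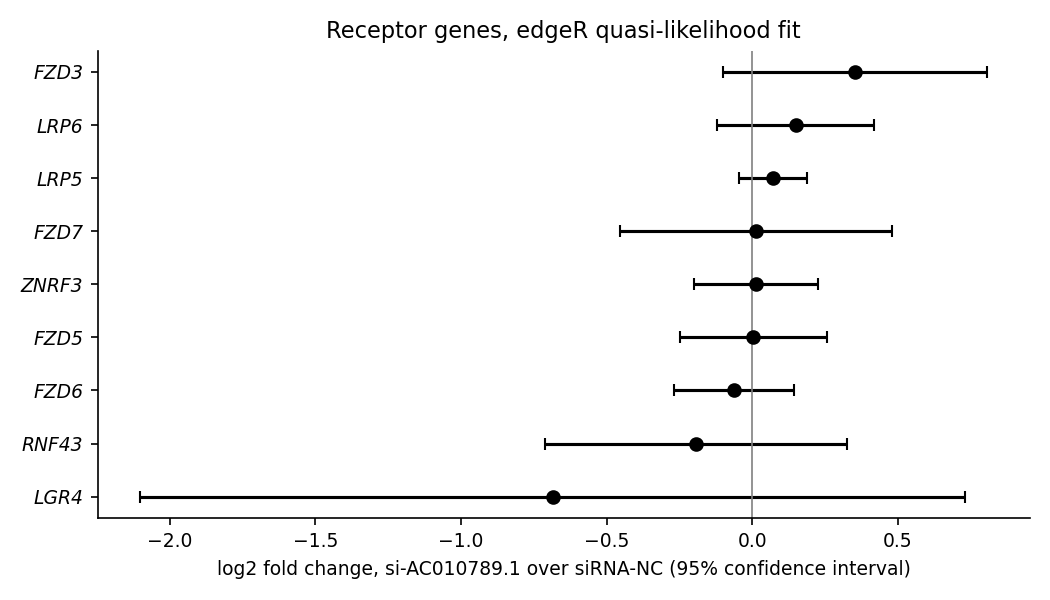
Log2 fold change of si-AC010789.1 over siRNA-NC for the 9 tested receptor genes (points) with the 95% confidence interval of the edgeR fit (bars, 3 libraries per group). All 9 intervals include 0, and that of LGR4, from -2.10 to 0.73, is the widest.

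Levels of different genes were compared per length, as TPM (each count divided by its transcript's length, then scaled to the same total in every library). LGR4 had the highest mean over the 6 libraries at 67.7 TPM, followed by LRP5 at 60.7, FZD6 at 41.0 and LRP6 at 34.0 TPM. By group, LGR4 led with siRNA-NC (82.3 ± 34.7 TPM against 58.6 ± 2.89 for LRP5, SD, n = 3) and LRP5 with si-AC010789.1 (62.7 ± 3.79 TPM against 53.1 ± 30.4 for LGR4). ZNRF3 at 5.45, FZD7 at 5.27, FZD5 at 3.11, RNF43 at 2.91 and FZD3 at 1.47 TPM formed a lower set, and LGR5 was last at 0.047 TPM. The values of neighbours in this order overlapped over the 6 libraries for LGR4 and LRP5, FZD6 and LRP6, ZNRF3 and FZD7, FZD5 and RNF43, and RNF43 and FZD3. No overlap was seen between the neighbours LRP5 and FZD6, LRP6 and ZNRF3, FZD7 and FZD5, or FZD3 and LGR5. Genes further apart in the order could still overlap. LGR4 fell to 32.7 TPM, within the range of LRP6. RNF43 rose to 4.44 TPM, above the lowest FZD7 value of 3.94, and FZD3 to 3.80, above the highest FZD5 value of 3.31. The receptors were therefore ordered firmly only as broad steps, and the step from LRP6, 26.6 to 40.1 TPM, to ZNRF3, 5.14 to 5.94 TPM, held in all 6 libraries.

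**Figure D2:**
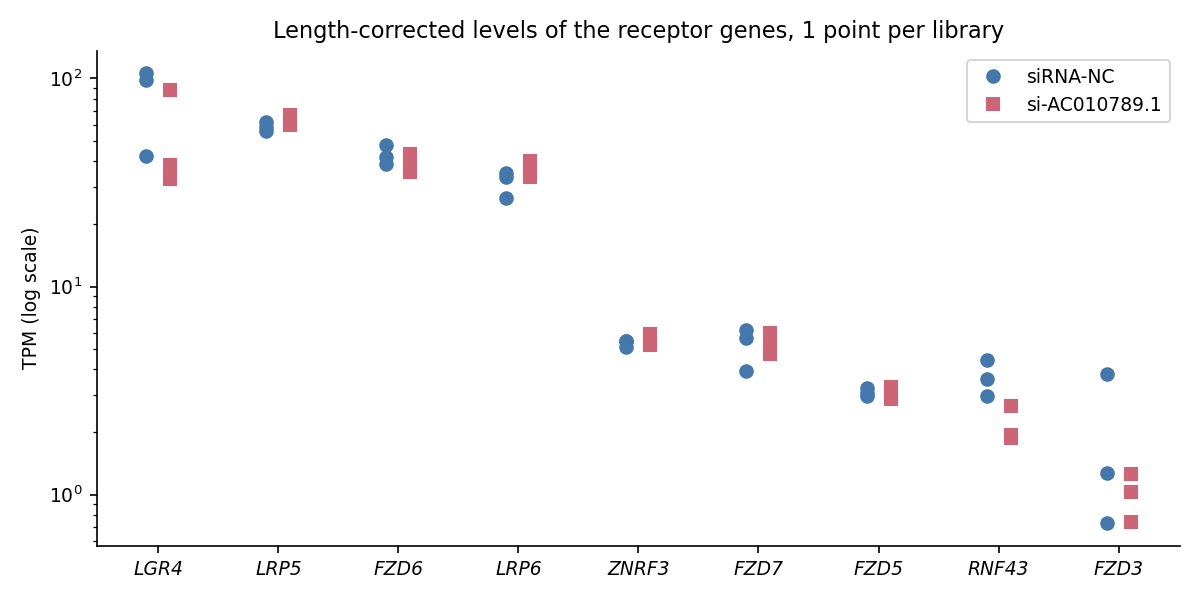
TPM on a log scale of 9 receptor genes in each library (circles siRNA-NC, squares si-AC010789.1, 3 points each), ordered by the mean over the 6 libraries. LGR4 spreads from 32.7 to 105.9 TPM, wider than its neighbours LRP5 and FZD6, and LGR5, with a mean of 0.047 TPM, is left out.

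Summed by role, the 4 Frizzled members reached 53.2 ± 4.34 TPM (SD, n = 3) with siRNA-NC and 48.5 ± 4.89 TPM with si-AC010789.1. LRP5 and LRP6 together reached 90.4 ± 5.84 and 98.9 ± 3.95 TPM, so co-receptor RNA exceeded that of these 4 Frizzled genes in both groups. RNF43 and ZNRF3 together were lower, at 9.04 ± 0.765 and 7.68 ± 0.483 TPM. ZNRF3 alone had 5.37 and 5.53 TPM, and much of the RNF43 part rests on a few reads of short transcripts, as given below. The 4 Frizzled members were not the whole family: FZD10 at 31.2 and FZD2 at 24.4 TPM stood above FZD7, and all 10 Frizzled genes summed to 119.8 ± 5.88 and 116 ± 7.85 TPM. LGR6, the third R-spondin receptor of this kind, was at 16.6 TPM, well above LGR5.

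FZD6, a Frizzled receptor known mostly for non-canonical signalling and planar polarity, was the most abundant of the 4 Frizzled members. Its gene sums were 69.0, 75.5 and 66.3 CPM in siRNA-NC replicates 1, 2 and 3 and 68.0, 72.5 and 61.4 CPM in si-AC010789.1 replicates 1, 2 and 3. The groups overlapped and the lowest and the highest library differed by little in each. Silencing gave a log2 fold change of -0.063 (SE 0.086, 95% interval -0.27 to 0.14, edgeR adjusted p = 0.760).

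FZD7, a Frizzled receptor known from canonical Wnt signalling in intestinal stem cells, had 12.2, 7.84 and 11.4 CPM with siRNA-NC and 12.0, 9.43 and 10.4 CPM with si-AC010789.1. Replicate 2 was the lowest library in both groups, and the groups overlapped. Its log2 fold change was 0.014 (SE 0.19, 95% interval -0.45 to 0.48, edgeR adjusted p = 0.980). FZD7 is a single-exon gene at chr2:202034587-202038445 (plus strand) with 1 transcript, so its sum cannot hide a change between isoforms.

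FZD5, a canonical Frizzled receptor of the gut epithelium, was among the steadiest of the 10 genes. It had 11.3, 10.3 and 10.8 CPM with siRNA-NC and 11.0, 11.4 and 10.0 CPM with si-AC010789.1. The groups overlapped throughout, the coefficient of variation over the 6 libraries was 4.96%, and the log2 fold change was 0.0040 (SE 0.11, 95% interval -0.25 to 0.26, edgeR adjusted p = 0.989). FZD5 also had 1 listed transcript (chr2:207762586-207769563, minus strand).

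FZD3, known from axon guidance and planar polarity, was the least abundant Frizzled member. Its counts were 54, 51 and 70 with siRNA-NC and 80, 69 and 65 with si-AC010789.1, or 4.79, 3.85 and 5.25 CPM against 6.99, 5.51 and 5.26 CPM. The groups did not overlap, but the highest siRNA-NC library (replicate 3) and the lowest si-AC010789.1 library (replicate 3) were almost level. The log2 fold change of 0.35 (SE 0.19, 95% interval -0.10 to 0.81) had an edgeR adjusted p of 0.400, and the exact two-sided permutation p of 0.1 is the smallest that 3 against 3 libraries allow. The value dropped to 0.22 on leaving out si-AC010789.1 replicate 1, and to 0.23 on leaving out siRNA-NC replicate 2. Per length the means of FZD3 went the other way and the groups overlapped. They were 1.93 ± 1.64 TPM with siRNA-NC and 1.01 ± 0.259 TPM with si-AC010789.1 (SD, n = 3).

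LRP5, a single-pass co-receptor of the LDL receptor family, had 128.6, 134 and 137 CPM with siRNA-NC and 135, 142 and 142 CPM with si-AC010789.1. Only the lowest si-AC010789.1 library fell within the range of siRNA-NC. LRP5 varied least of the 9 tested genes, with a coefficient of variation of 3.78%, and its log2 fold change was 0.070 (SE 0.049, 95% interval -0.046 to 0.19, edgeR adjusted p = 0.514). The gene lies at chr11:68312609-68449275 on the plus strand.

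LRP6, the closely related co-receptor, had 127, 100.4 and 135 CPM with siRNA-NC and 132, 129 and 141 CPM with si-AC010789.1. siRNA-NC replicate 2 was the low library, and the other 5 lay between 127 and 141 CPM. LRP6 had a log2 fold change of 0.15 (SE 0.11, 95% interval -0.12 to 0.42, edgeR adjusted p = 0.554), and without siRNA-NC replicate 2 it was 0.030. LRP6 lies at chr12:12116025-12267012 on the minus strand.

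ZNRF3, the ligase that acts beside RNF43, had 16.7, 18.2 and 18.5 CPM with siRNA-NC and 17.0, 18.8 and 18.1 CPM with si-AC010789.1. The groups overlapped, replicate 1 was the lowest library of each, and the log2 fold change was 0.013 (SE 0.088, 95% interval -0.20 to 0.22, edgeR adjusted p = 0.957). ZNRF3 lies at chr22:28883592-29057487 on the plus strand.

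RNF43 was counted with 65, 48 and 52 reads with siRNA-NC and 45, 49 and 46 with si-AC010789.1. In CPM these were 5.76, 3.62 and 3.90 against 3.93, 3.91 and 3.72, and siRNA-NC replicate 1 stood above the other 5 libraries. RNF43 had a log2 fold change of -0.19 (SE 0.22, 95% interval -0.71 to 0.32, edgeR adjusted p = 0.705). Without siRNA-NC replicate 1 it was 0.038. The gene lies at chr17:58352500-58417595 on the minus strand, and its exons overlap those of SUPT4H1 and AC004687.2 on the same strand and of TSPOAP1-AS1 on the other, so reads of these genes may be shared.

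RNF43 looked different per length. Its TPM values were 3.60, 2.99 and 4.44 with siRNA-NC and 1.86, 1.93 and 2.66 with si-AC010789.1, and on this scale the groups did not overlap. Short transcripts weigh more per read on this scale. RNF43-206 (324 nt) had 0, 3 and 4 reads with siRNA-NC and a single read in every library with si-AC010789.1. RNF43-204 (497 nt) had 5, 0 and 5 reads against 0, 0 and 3. A few reads of these transcripts thus carry much of the TPM of RNF43.

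LGR4, the R-spondin receptor with the highest level here, spread widely within both groups. It had 241, 252 and 81.1 CPM in siRNA-NC replicates 1, 2 and 3 and 75.8, 216 and 64.7 CPM in si-AC010789.1 replicates 1, 2 and 3. Of the 6 libraries, siRNA-NC replicates 1 and 2 and si-AC010789.1 replicate 2 were high and the other 3 low, so high and low libraries occurred under both siRNAs. The log2 fold change of -0.69 (SE 0.59, edgeR adjusted p = 0.611) had a 95% interval of 0.233-fold to 1.66-fold. Leaving out 1 library at a time moved the log2 fold change from -1.44 (without si-AC010789.1 replicate 2) to -0.39 (without si-AC010789.1 replicate 3), with -1.05 on leaving out siRNA-NC replicate 3.

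The highest LGR4 library was 3.11 times the lowest with siRNA-NC and 3.34 times with si-AC010789.1, while in the other tested receptors this ratio was 1.05 to 1.59. Among 4695 genes with a mean of at least 50 CPM, 40 had a ratio as large as that of LGR4 with siRNA-NC, 34 with si-AC010789.1 and 18 in both, and the median ratios were 1.11 and 1.10. LGR4 was thus 1 of a few well-counted genes that differed this much between replicates. Its exons (chr11:27365961-27472775, minus strand) overlap no other annotated gene.

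LGR5 was hardly counted. The libraries held 3, 0 and 0 reads with siRNA-NC and 0, 3 and 2 with si-AC010789.1, at most 0.266 CPM and at or under the floor in each library. LGR5 was left out by the filter and no fold is given. This stem cell marker was therefore not detectable beyond a few reads in either group at this depth, with 1 of its 6 annotated transcripts in the table.

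**Figure D3:**
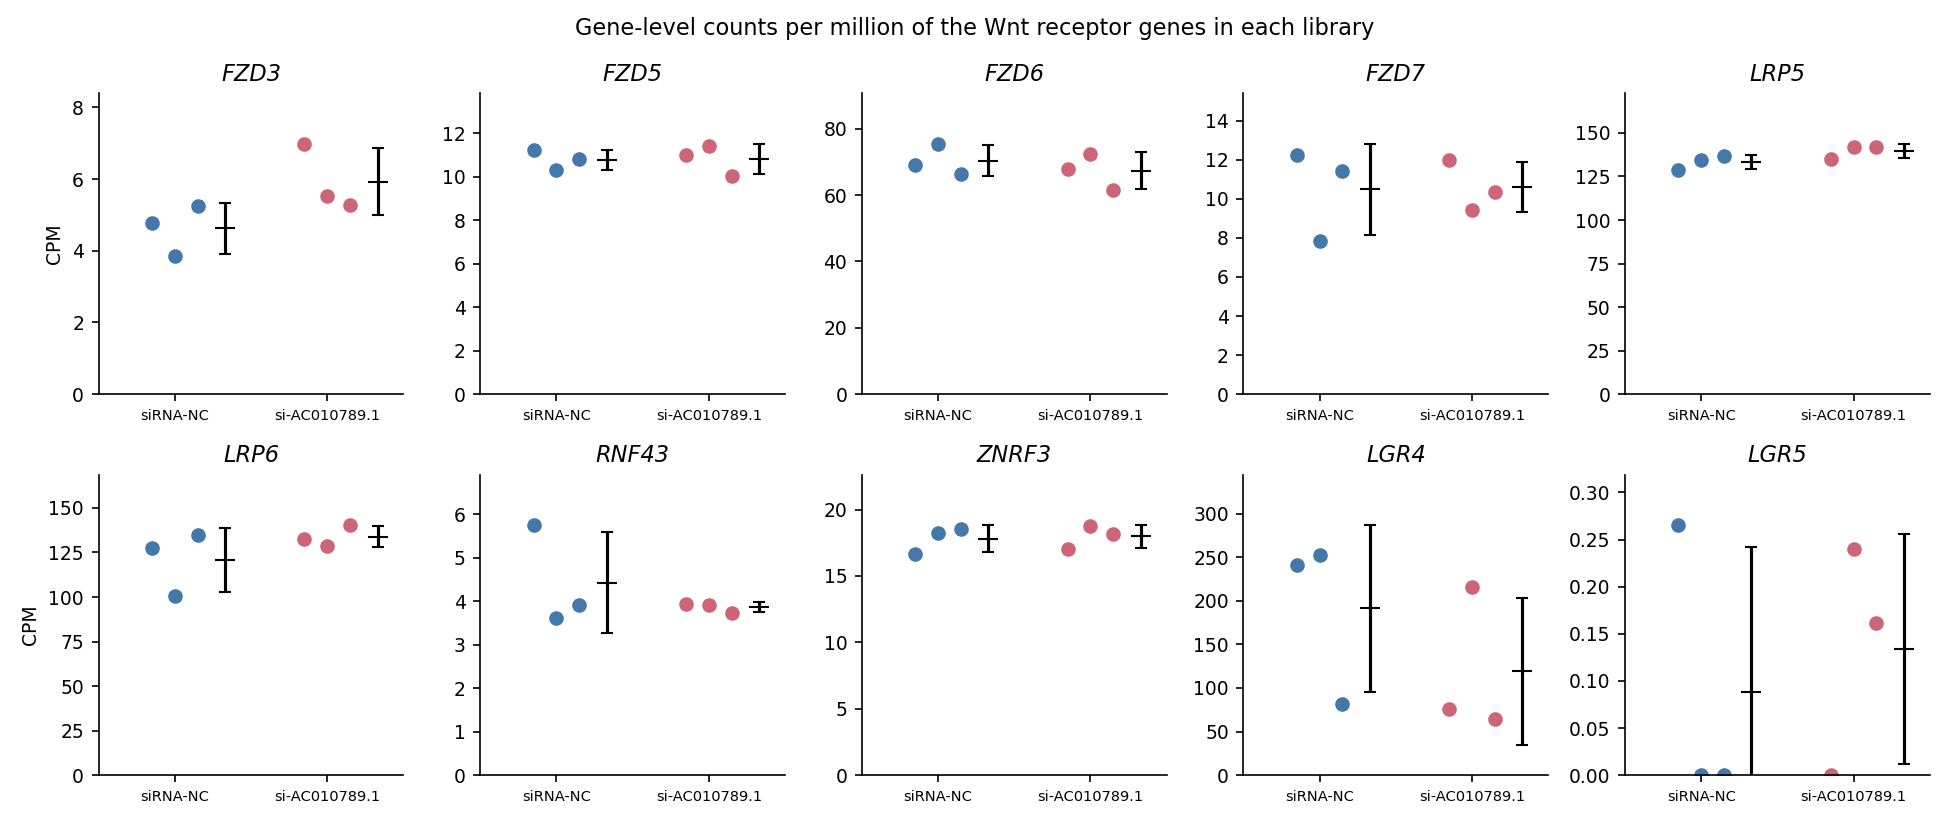
CPM of each of the 10 receptor genes in the 6 libraries, 1 point per library, with the mean and SD of 3 libraries beside each group (each panel has its own axis from 0). The points of LGR4 split into 3 high libraries of 216 to 252 CPM and 3 low ones of 64.7 to 81.1 CPM across both groups, and those of LRP5, ZNRF3 and FZD5 lie close together.

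Single transcripts were less certain than the sums. Of the 41 listed transcripts of the receptors, 20 passed the filter and none was called by edgeR, whose quasi-likelihood test called 0.0135% of 44319 transcripts. At an unadjusted p under 0.05 there was 1 of the 20 (5.73% of all transcripts), and DESeq2 called 1 of the 20 (1.54% of all), both times LGR4-202. A count of 0 in at least 1 library was found for 19 of the 41. edgeR fitted a biological coefficient of variation of 0.698 to transcripts and 0.170 to gene sums, so replicates spread more at the level of transcripts. How reads shared by transcripts were divided is not given in the sources used here.

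LGR4-202, the coding transcript that skips the 72-nt segment shown with its joins, had 64, 711 and 265 reads with siRNA-NC and 7, 41 and 20 with si-AC010789.1. The groups did not overlap, and siRNA-NC replicate 1 was the low library of its group. Its log2 fold change was -3.86 (SE 1.06), with an adjusted p of 0.676 in edgeR and 0.0107 in DESeq2, so the call depended on the tool. As a share of all LGR4 reads it took 2.35%, 21.2% and 24.5% with siRNA-NC and 0.807%, 1.51% and 2.50% with si-AC010789.1, which overlap (exact two-sided permutation p = 0.2).

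LGR4-201, the transcript with the segment, carried the high and low libraries of the gene. It had 2621, 2587 and 760 reads with siRNA-NC and 820, 2636 and 743 with si-AC010789.1. Both long transcripts share 5134 nt, and their sum differed 4.08-fold in CPM between the lowest and the highest library. The 3 retained-intron transcripts of LGR4 summed to 28, 41 and 47 reads with siRNA-NC and 40, 28 and 33 with si-AC010789.1, a 1.60-fold range in CPM that did not follow the long transcripts. In siRNA-NC replicate 3, where the long transcripts were low, the retained introns were at their highest.

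**Figure D4:**
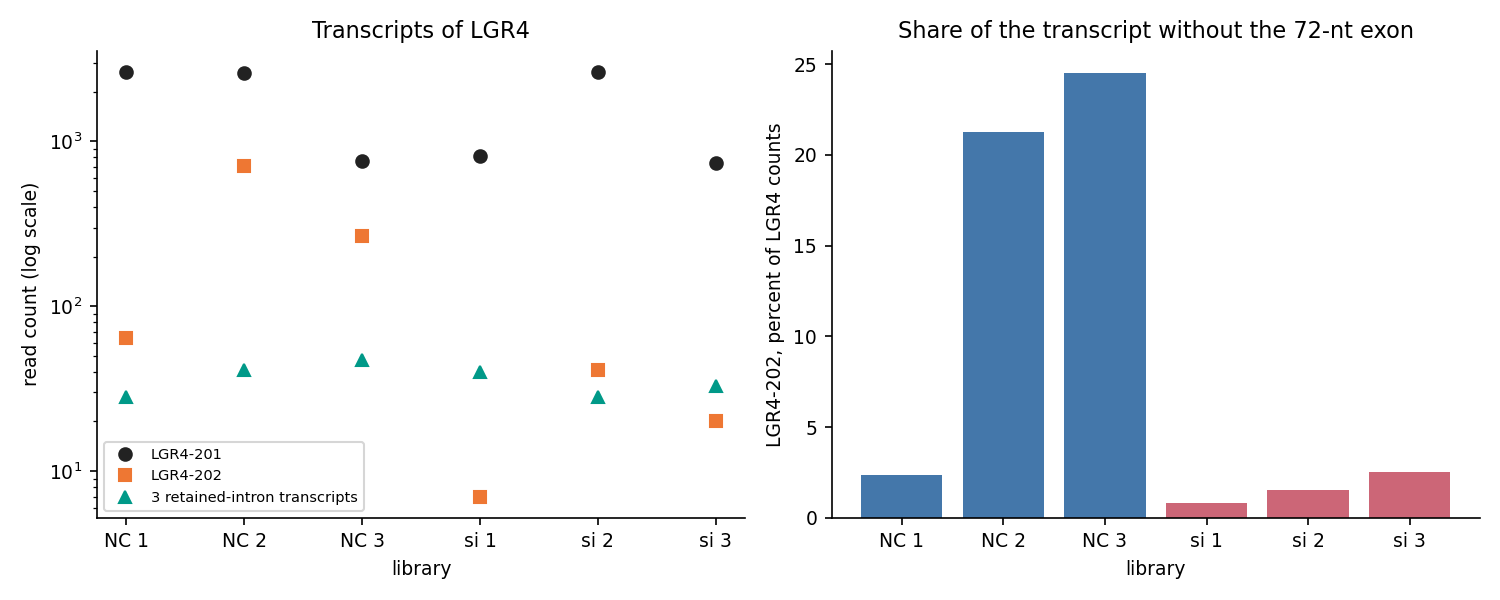
Read counts on a log scale of LGR4-201, LGR4-202 and the 3 retained-intron transcripts in each library (left), and LGR4-202 as a percent of all LGR4 reads (right, NC for siRNA-NC and si for si-AC010789.1). LGR4-201 has 2587 to 2636 reads in 3 libraries and 743 to 820 in the other 3, and the share of LGR4-202 is 21.2% and 24.5% in siRNA-NC replicates 2 and 3 but 2.50% or less in the other 4 libraries.

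Reads of FZD3 moved between a pair of almost identical transcripts. FZD3-204 had 42, 1 and 70 reads with siRNA-NC and 73, 68 and 0 with si-AC010789.1, and FZD3-201 had 1, 47 and 0 against 6, 0 and 65. In each library, in both groups, one of them had 6 reads or fewer. The transcripts share 13689 nt of 13740 and 13736 and the same coding sequence of 1998 nt, and their sum was 43, 48 and 70 against 79, 68 and 65. FZD3-203, a short coding transcript of 580 nt, had 11 reads in siRNA-NC replicate 1 and 3 or fewer elsewhere, and that library had the highest FZD3 TPM, 3.80.

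FZD6 was spread over 7 transcripts, and the leading one changed from library to library. FZD6-206 had 357, 655 and 0 reads with siRNA-NC and 447, 0 and 264 with si-AC010789.1, and its log2 fold change of -0.43 had an SE of 2.29 (edgeR adjusted p = 0.997). FZD6-201, the transcript whose share differed most between groups, took 17.9% ± 9.22 of FZD6 reads with siRNA-NC and 29.1% ± 14.2 with si-AC010789.1 (SD, n = 3), which overlapped. The nonsense-mediated decay transcripts of FZD6 together took 27.4% and 24.1% of its reads on average, with single libraries from 9.49% to 43.0%. The exons of FZD6 overlap BAALC-AS1 on the other strand.

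LRP5 was counted almost wholly as LRP5-201, with 90.5% to 96.5% of the reads of the gene. Its 1396, 1702 and 1647 reads with siRNA-NC and 1463, 1716 and 1629 with si-AC010789.1 gave a log2 fold change of 0.067 (SE 0.074, edgeR adjusted p = 0.991). LRP5-206, a nonsense-mediated decay transcript and the one whose share differed most, had 30, 48 and 127 reads against 53, 32 and 76, which overlapped.

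LRP6-201 held most LRP6 reads, with 1259, 1302 and 1619 with siRNA-NC and 1292, 1122 and 1713 with si-AC010789.1 (log2 fold change 0.032, SE 0.19, edgeR adjusted p = 0.998). LRP6-206, without the 135-nt segment shown above with its joins, had 159, 0 and 147 reads against 203, 422 and 0. All of its 4774 nt lie within the 10020 nt of LRP6-201 apart from the join, and a count of 0 occurred in both groups. LRP6-203, a nonsense-mediated decay transcript, had 40 reads in si-AC010789.1 replicate 2 and 0 in the other 5 libraries.

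RNF43-201, the transcript with the miR-432-3p seed match, had 56, 30 and 32 reads with siRNA-NC and 44, 33 and 0 with si-AC010789.1 (log2 fold change -0.58, SE 1.32, edgeR adjusted p = 0.994). In si-AC010789.1 replicate 3, where it was at 0, RNF43-208 had 36 reads, against 7 or fewer in the other libraries. The 3 transcripts RNF43-201, RNF43-203 and RNF43-208 have the same coding sequence of 2349 nt, and their sum was 60, 30 and 39 with siRNA-NC and 44, 48 and 42 with si-AC010789.1. RNF43-205, with a coding sequence of 2226 nt, had 0, 15 and 4 reads with siRNA-NC and 0 throughout with si-AC010789.1. ZNRF3 by contrast was counted mainly as ZNRF3-203, with 176, 231 and 236 reads against 181, 216 and 216 (log2 fold change -0.017, SE 0.18, edgeR adjusted p = 0.999).

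**Figure D5:**
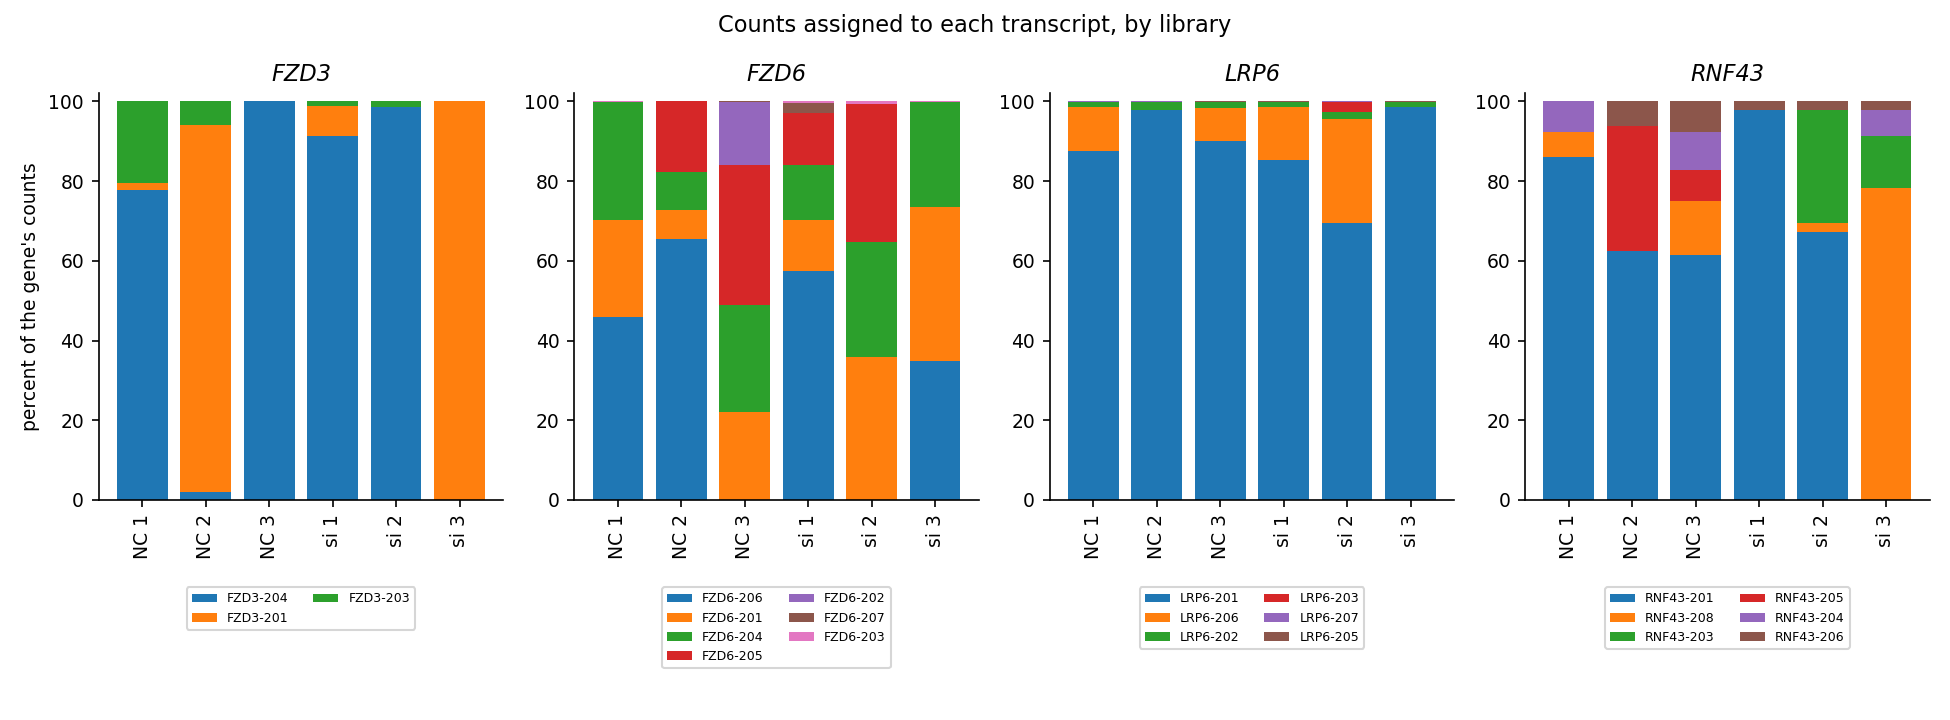
Percent of the reads of FZD3, FZD6, LRP6 and RNF43 assigned to each listed transcript (colours) in each library (NC for siRNA-NC, si for si-AC010789.1). The leading transcript of FZD3 and FZD6 changes between libraries of 1 group, as with FZD3-201, which has 47 of 51 reads in siRNA-NC replicate 2 and 0 of 70 in replicate 3.

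RefSeq promoter windows (250 bases before to 50 after the start, GRCh38.p14) were found for 4 of the 10 genes, FZD5, LGR4, LRP5 and RNF43, in 5 windows. CTTTG followed by AA, AT, TA or TT, letters that TCF and LEF factors are known to bind, occurred on neither strand of these windows. Of all 35116 windows, 13.8% held at least 1. The absence says only that these letters are not in these windows.

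Across the 6 libraries, FZD6 and LGR4 had the most alike patterns of the 9 tested receptor genes, with a Pearson r of 0.84 on log2(CPM + 1), followed by LRP5 and ZNRF3 (r = 0.76) and FZD7 and LRP6 (r = 0.75). The least alike were FZD6 and LRP6 (r = -0.83), LRP5 and RNF43 (r = -0.73) and RNF43 and ZNRF3 (r = -0.72). These 6 points are shared by all pairs, include both groups and share their depth, so the values are descriptions with no test.

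Genes of the pathway were also counted in lists, which overlap in part. The target genes include the receptors RNF43, ZNRF3 and LGR5, AXIN2 of the signal transducers, and DKK1 and NOTUM of the inhibitors. Of all genes tested, 0.982% were called by edgeR, 5.06% by DESeq2, and 17.2% had an unadjusted p under 0.05. Of 15 tested genes among other Wnt receptors, 5 were higher and 10 lower with a median log2 fold change of -0.056, and none was called by edgeR (1 at an unadjusted p under 0.05, the co-receptor ADGRA2 at -0.41). The most abundant were the Wnt receptor RYK, at 125 ± 25.2 CPM with siRNA-NC and 143 ± 10.6 with si-AC010789.1 (SD, n = 3), and the syndecan SDC4, at 92.0 ± 6.04 and 87.8 ± 1.66 CPM. Neither passed the test.

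Wnt and R-spondin ligands gave 4 higher and 4 lower of 8 tested (median 0.050), with none called by edgeR. An unadjusted p under 0.05 was found for 5 of the 8, with 2 higher and 3 lower, against 17.2% of all genes. The most abundant were WNT10B, with 97.3 ± 7.18 CPM with siRNA-NC and 109 ± 10.7 with si-AC010789.1, and WNT5A, with 95.4 ± 4.88 and 83.4 ± 5.30 CPM (SD, n = 3). WNT5A had a log2 fold change of -0.19 and an edgeR adjusted p of 0.237. RSPO3, a ligand of LGR4 to LGR6 named after its values were seen, had 2.18 ± 0.150 and 3.45 ± 1.03 CPM. Its groups overlapped, and its edgeR adjusted p was 0.288. The others at an unadjusted p under 0.05 were WNT2B at a log2 fold change of -0.54, WNT9A at -0.55 and WNT3 at 0.20. Their edgeR adjusted p ran from 0.165 to 0.285. Ligand secretion genes were 5 higher and 5 lower of 10 (median 0.014, none called by edgeR, 3 of 10 at an unadjusted p under 0.05, against 17.2% of all genes), led in level by the cargo receptors TMED10 and TMED2.

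Secreted and surface inhibitors of Wnt signalling gave 3 higher and 4 lower of 7 tested (median -0.025), none called by edgeR and 3 of 7, all lower, at an unadjusted p under 0.05, against 17.2% of all genes. TRABD2A, a protease that inactivates Wnt ligands, was the most abundant at 95.0 ± 12.6 CPM with siRNA-NC and 74.1 ± 5.31 with si-AC010789.1, with a log2 fold change of -0.36 and an edgeR adjusted p of 0.179. DKK1, which blocks LRP5 and LRP6, was next at 29.8 ± 1.02 and 30.5 ± 1.57 CPM.

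Genes of receptor folding and traffic were 19 higher and 9 lower of 28 tested, with a median log2 fold change of 0.063, and none called by edgeR. At an unadjusted p under 0.05 there were 4 of the 28 (17.2% of all genes), and DESeq2 called 1 (5.06% of all genes). DESeq2 called MESD, the chaperone that LRP5 and LRP6 need to reach the cell surface, named after its values were seen. MESD had 45.2, 39.3 and 45.6 CPM with siRNA-NC and 85.7, 69.5 and 60.6 CPM with si-AC010789.1. All 3 si-AC010789.1 libraries were above all 3 siRNA-NC libraries. MESD had a log2 fold change of 0.73 (SE 0.14), with an adjusted p of 0.0756 in edgeR and 0.000406 in DESeq2, so MESD passed by 1 of the tools. Its exons overlap AC027808.1 on the same strand and CEMIP on the other. The clients of this chaperone, LRP5 and LRP6, had the log2 fold changes of 0.070 and 0.15 given above, and neither passed. The most abundant genes of this list were the clathrin heavy chain CLTC, at 696 ± 30.9 and 697.5 ± 23.4 CPM, and the adaptor subunit AP2B1, at 382 ± 21.0 and 436 ± 4.10 CPM.

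Below the receptors, the 20 signal transducers were 9 higher and 11 lower (median -0.0038, none called by edgeR, 2 of 20 at an unadjusted p under 0.05, against 17.2% of all genes). GSK3B, the kinase that marks β-catenin, had 222 ± 15.7 and 238 ± 3.50 CPM. APC, the scaffold of the destruction complex, had 221 ± 34.3 and 174 ± 100.7 CPM, and its log2 fold change of -0.35 had an SE of 0.48.

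Of 22 tested target genes of the pathway, 8 were higher and 14 lower (median -0.056), and 1 was called by edgeR (0.982% of all genes). An unadjusted p under 0.05 was found for 5 of the 22 (17.2% of all genes), 2 higher and 3 lower. The 2 higher ones were CCND1, described next, and CDC25A, named after its values were seen. CDC25A had 39.2, 37.8 and 38.1 CPM with siRNA-NC and 77.4, 55.7 and 56.9 with si-AC010789.1. Its log2 fold change was 0.72 (adjusted p = 0.0746 in edgeR and 0.000483 in DESeq2). DESeq2 called both higher genes and none of the lower ones (5.06% of all genes). The 3 lower ones, named after their values were seen, were SOX4 at a log2 fold change of -0.88, TCF7 at -0.79 and LEF1 at -0.34. None of them passed the adjusted test (edgeR adjusted p from 0.254 to 0.290), and SOX4 spread from 46.9 to 112 CPM within si-AC010789.1. CCND1, which encodes cyclin D1, rose from 176, 190 and 203 CPM in siRNA-NC replicates 1, 2 and 3 to 242, 262 and 254 CPM with si-AC010789.1. This was a log2 fold change of 0.41 (SE 0.063, edgeR adjusted p = 0.0473). The call was lost without the filter (edgeR adjusted p = 0.0872) and when any 1 library was left out (lowest edgeR adjusted p = 0.0771, without siRNA-NC replicate 3). CD44, the most abundant of the list, had 390 ± 30.1 and 374 ± 25.5 CPM. From assays other than this sequencing, the study reports lower mRNA of cyclin D1, C-myc, CD44, JUN and TCF1 after AC010789.1 knockdown. It also reports lower C-myc and cyclin D1 protein, in cells with stable knockdown, so the direction for CCND1 in these counts was the opposite. In these counts CD44 had a log2 fold change of -0.061 and JUN of 0.020. MYC was at -0.63 (SE 1.24). It spread from 10.4 to 169 CPM within siRNA-NC and from 12.7 to 166 CPM within si-AC010789.1. CD44, JUN and MYC did not pass the test (edgeR adjusted p from 0.734 to 0.953). TCF1 was not matched to a gene symbol here. AXIN2, the feedback target of the pathway, had 29.8 ± 1.54 and 28.8 ± 2.07 CPM (edgeR adjusted p = 0.815), so it, like the receptors RNF43 and ZNRF3 that are known as targets, did not pass the test.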

How the data were processed

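RNA from 6 libraries of HCT116 cells was analysed, in groups taken from the sample labels. The authors deposited unnormalized read counts, as integers for each Ensembl transcript in each library. Paired-end TruSeq libraries were sequenced on an Illumina NovaSeq, and the study names Cuffdiff for its tests. The submitters' processing notes name CASAVA 1.8, TopHat2 2.0.6 and the builds mm10 and GRCh38, with no role. The counting program, the annotation and the treatment of strand are not given in the sources used here.

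Counts of the 98782 transcripts found in GENCODE release 29 (GRCh38, which may differ from the annotation used by the authors) were summed over 18750 genes, and 104 identifiers without a match stayed out. Matched transcripts held 99.897% to 99.931% of the total per library. Genes and transcripts were tested separately with the edgeR 4.0.16 quasi-likelihood test in R 4.3.3, with TMM factors, filterByExpr (minimum count 10, minimum total 15) and Benjamini-Hochberg adjustment over all features tested. The threshold was an adjusted p of 0.05. DESeq2 1.42.0, upper-quartile normalization, a filter at a mean of 1 CPM, no filter, the replicate number as a block and leaving out each library were the alternatives. Single values were also compared by an exact permutation test, whose smallest p is 0.1. Simulated data with known changes served to test the scripts. Python 3.11.15, pandas 2.3.3, numpy 2.4.6, scipy 1.17.1 and matplotlib 3.10.9 were used for sums and figures.

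The members and the gene lists were chosen with earlier results of these data known, and the lists were written from general knowledge. The text names every receptor, its most abundant transcript and the one with the largest difference in share, and in each list the called genes and the 2 with the highest mean CPM. Other transcripts and genes, ADGRA2, RSPO3, MESD and AXIN2 among them, were named after their values were seen. The level of 1 marker gene is not reported here.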

Additional observations from a re-analysis of the deposited data

How the results depend on the processing

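None of the 9 tested receptor genes was called under any alternative run. The log2 fold change changed sign for FZD5 without a filter (-0.0032) and, on leaving out 1 library, for FZD5 (-0.034 to 0.054), FZD7 (-0.16 to 0.14), RNF43 (-0.32 to 0.038) and ZNRF3 (-0.031 to 0.050). It kept its sign for FZD3 (0.22 to 0.46), FZD6 (-0.12 to -0.0026), LRP5 (0.047 to 0.094), LRP6 (0.030 to 0.23) and LGR4 (-1.44 to -0.39). Over all genes, 135 calls became 520 with DESeq2, 69 without a filter and 12 to 37 with 1 library left out. Over all transcripts, 6 calls became 675 with DESeq2, 0 without a filter and 0 to 6 with 1 library left out. DESeq2 called 1 receptor transcript, LGR4-202, where edgeR called 0. It called 1 gene of receptor traffic against 0, and 2 target genes, CCND1 and CDC25A, against 1. Target gene calls were 0 without a filter and 0 to 1 with 1 library left out, and the 1 call, without si-AC010789.1 replicate 3, was not CCND1.

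The replicate numbers showed no clear pairing of the libraries. Deviations from the group means correlated at 0.090, 0.0028 and 0.00033 for equal numbers and at -0.077 to 0.079 for unequal ones. The labels do not say whether libraries were paired. With the replicate number as a block, 0 genes, 0 transcripts and 0 target genes were called, CCND1 had an adjusted p of 0.147 in edgeR, and LGR4 was at -0.73 with an adjusted p of 0.364 in edgeR.

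Among named transcripts the sign changed for FZD6-206 under the block (0.27), for FZD7-201 without a filter (-0.0029), and on leaving out 1 library for FZD3-204 (-0.20 to 1.06), FZD5-201 (-0.048 to 0.042), FZD6-206 (-1.35 to 0.36), FZD7-201 (-0.16 to 0.12), LRP5-206 (-0.58 to 0.49), LRP6-201 (-0.14 to 0.18), RNF43-201 (-1.29 to 0.0061) and ZNRF3-203 (-0.079 to 0.024). The rank by TPM changed for 2 receptors when gene counts were divided by the longest transcript, and for 4, 2 and 6 in siRNA-NC libraries and 5, 2 and 4 in si-AC010789.1 libraries taken alone. Depth limits LGR5, FZD3 and RNF43, with at most 3, 80 and 65 reads in a library.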
